A study of Homo sapiens with 2 samples.

Results

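The miR-320 family on these arrays comprised 5 miRNA probes, hsa-miR-320a, hsa-miR-320b, hsa-miR-320c, hsa-miR-320d and hsa-miR-320e, among 2565 miRNA probes in all. Membership was decided by the probe names in the scanner output. RNA of exosomes, the small vesicles that cells release, was profiled from 2 cultures, both of HuH-7, an established human hepatocellular carcinoma cell line, labelled HuH-7-M and HuH-7-P. The labels do not spell out M and P, name no treatment or genotype that separates the cultures, and do not say how HuH-7-M was obtained, and the series title speaks of lines with high intrahepatic metastasis. Both cultures were grown in medium with 10% fetal bovine serum and then moved to advanced DMEM, the supernatant was filtered, and vesicles were pelleted at 110000 g for 70 min at 4 °C. The labels' extraction text speaks of RNA from cells, while each sample is named as exosome. The RNA was labelled with the dye Cy5 and hybridised to a 1-colour 3D-Gene miRNA array, with 1 array per culture, so no value below has a replicate, no test between the cultures was possible and no p-value is given.

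miR-320 is among the best known human miRNAs made without Drosha, the nuclear enzyme that cuts most miRNA hairpins out of longer transcripts. In mouse and human cells the miR-320 hairpin is itself the transcript: its 5′ end is the start of transcription and carries a cap, exportin-1 takes it to the cytoplasm, and Dicer then cuts it. The cap hinders use of the 5′ arm, so the 3′ arm supplies the mature miRNA. miR-484 is the other well-studied miRNA of this kind, and mirtrons, which are hairpins released by splicing, bypass Drosha by another route. Whether the locus of each member is transcribed as a capped hairpin was not tested here. miR-320a is often detected in plasma and vesicle RNA.

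The mature sequences are shown because the members differ at a few bases, which bears on what each probe can tell apart. A RefSeq (GRCh38.p14) mature sequence was found under the array's name for 4 of the 5 members, all but miR-320a. Sequences held under other names were not looked up. The capitals mark the seed, bases 2 to 8.
hsa-miR-320b: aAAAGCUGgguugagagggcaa
hsa-miR-320c: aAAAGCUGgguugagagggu
hsa-miR-320d: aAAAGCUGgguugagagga
hsa-miR-320e: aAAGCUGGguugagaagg
hsa-miR-4429: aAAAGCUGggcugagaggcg
hsa-miR-484: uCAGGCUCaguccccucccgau
miR-320b, miR-320c and miR-320d shared their first 18 bases and their seed. Counted from 1 at the 5′ end of miR-320b, miR-320c carried C20U and miR-320d carried G19A, and they ended after 20 and 19 bases, against 22 in miR-320b. miR-320e had 18 bases, started at position 2 of miR-320b and carried G17A, so that its bases 2 to 8 were moved by 1 base, and no other of the 2253 array miRNAs with a RefSeq sequence had the same seed. Among these 2253, miR-4429 was the only miRNA outside the family with the seed of miR-320b. It differed from miR-320b by U11C, G19C and C20G over its 20 bases. It was also the only other of the 2253 that shared a run of 10 bases with a printed member. The remaining array miRNAs were not compared. The probe sequences are not given in the sources used here, so the part of shared hybridisation in any value below was not tested.

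The hairpins of miR-320b and miR-320e are printed to show where the mature sequence, in capitals, lies.
MIR320B1: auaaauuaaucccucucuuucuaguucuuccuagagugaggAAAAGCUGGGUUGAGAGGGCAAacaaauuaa
MIR320E: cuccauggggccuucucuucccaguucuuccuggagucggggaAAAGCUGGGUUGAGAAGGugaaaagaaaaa
In both the mature sequence sits in the 3′ part, from base 42 of 72 in MIR320B1 and from base 44 of 73 in MIR320E. The base just before it is G in MIR320B1 and A in MIR320E, so the MIR320E hairpin holds the first A of its relatives just outside the annotated mature sequence. miR-484, by contrast, starts at base 8 of a hairpin of 79 bases and so comes from the 5′ arm.

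Several members have more than 1 locus. In GRCh38.p14, mature miR-320b lies at chr1:116671787-116671808 on the plus strand (MIR320B1) and at chr1:224257049-224257070 on the minus strand (MIR320B2), the second inside the span of the protein-coding gene NVL. miR-320c lies at chr18:21683559-21683578 (MIR320C1, within ABHD3) and at chr18:24321716-24321735 (MIR320C2, within OSBPL1A), both on the plus strand. miR-320d lies at chr13:40727828-40727846 (MIR320D1) and at chrX:140926172-140926190 (MIR320D2), and miR-320e at chr19:46709294-46709311 (MIR320E, within PRKD2), all on the minus strand. miR-4429 lies at chr2:11540652-11540671 on the minus strand, within GREB1, and miR-484 at chr16:15643301-15643322 on the plus strand. The annotation used gives gene spans only, so exon and intron were not looked up. Since the copies of miR-320b, of miR-320c and of miR-320d have identical mature sequences, 1 probe reads both loci of each.

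The arrays set the frame for these values. Each carried 320 BLANK spots, with a mean spot median intensity of 58.7 ± 1.63 on the HuH-7-M array and 59.7 ± 1.64 on the HuH-7-P array (SD over spots of 1 array), and 85 spots labelled No Probe, at 81.1 ± 5.73 in HuH-7-M and 79.8 ± 7.20 in HuH-7-P. These SDs are over all control spots, whereas the limits below were drawn after leaving out the top and bottom 5% of the control spots, which narrows the SD to 1.22 (BLANK) and 4.45 (No Probe) in HuH-7-M and to 1.31 (BLANK) and 3.83 (No Probe) in HuH-7-P. The BLANK limit, which a spot median had to pass to count as above background, lay 2 of these narrower SDs over the BLANK mean of the spots kept, at 61.2 on the HuH-7-M array and 62.3 on the HuH-7-P array. The No Probe limit, built in the same way, was 89.9 on the HuH-7-M array and 86.9 on the HuH-7-P array. Of all miRNA probes 1671 on the HuH-7-M array and 1669 on the HuH-7-P array were above the BLANK limit. The liver markers miR-122-5p, miR-192-5p, miR-194-5p and miR-885-5p were all above it on both arrays (4 of 4, with 2 above the No Probe limit), with a summed BLANK-subtracted signal of 140 on the HuH-7-M array and 111 on the HuH-7-P array. Of 3 red cell markers 2 were above the BLANK limit (summed signal 39.6 in HuH-7-M and 42.6 in HuH-7-P), and of 3 leukocyte markers 2 (11.8 in HuH-7-M and 14.9 in HuH-7-P). Of 3 muscle markers 2 were above it (20.9 in HuH-7-M and 114 in HuH-7-P, the gap coming from miR-206). Of 3 markers of endothelium and stroma 0 were (2.73 in HuH-7-M and 5.30 in HuH-7-P). None of these other markers passed the No Probe limit on each array. Their part in the miR-320 values was not tested.

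All 5 members were above the BLANK limit on both arrays, as were 62.1% of all miRNA probes. All 5 members also read above the median miRNA probe, at 69.5 in HuH-7-M and 70.6 in HuH-7-P, but some lay near the No Probe spots. miR-320a had a spot median of 146.9 in HuH-7-M exosomes and 133.2 in HuH-7-P exosomes, and miR-320b had 117 in HuH-7-M and 111 in HuH-7-P. Both lay well clear of the No Probe limit on each array. miR-320c read 90.2 in HuH-7-M exosomes and 89.7 in HuH-7-P exosomes, above the No Probe limit by only 0.347 in HuH-7-M and 2.80 in HuH-7-P. miR-320e read 88.1 in HuH-7-M and 89.0 in HuH-7-P, which relative to that limit was -1.80 on the HuH-7-M array and 2.12 on the HuH-7-P array, so it passed on HuH-7-P only. miR-320d read 77.9 in HuH-7-M and 77.3 in HuH-7-P, inside the cloud of No Probe spots on both arrays. Thus 3 of the 5 members (miR-320a, miR-320b and miR-320c) passed the No Probe limit on each array, as did 30.8% of all miRNA probes. For miR-320c this rests on the spots left out: with all 85 No Probe spots kept, the limit was 92.5 in HuH-7-M and 94.2 in HuH-7-P, miR-320c fell short of it on both arrays, and 2 of 5 members passed. In bulk vesicle RNA, fewer vesicles and less miRNA per vesicle cannot be told apart.

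The No Probe spots gave a stricter reference for each member than the BLANK spots. Their means, 81.1 in HuH-7-M and 79.8 in HuH-7-P, lay above the median miRNA probe, 69.5 in HuH-7-M and 70.6 in HuH-7-P. For miR-320a 0 of the 85 No Probe spots exceeded it on the HuH-7-M array and 0 on the HuH-7-P array, and for miR-320b 0 in HuH-7-M and 1 in HuH-7-P. For miR-320c 3 No Probe spots exceeded it on the HuH-7-M array and 2 on the HuH-7-P array, and for miR-320e 10 in HuH-7-M and 2 in HuH-7-P. For miR-320d 53 in HuH-7-M and 55 in HuH-7-P were brighter, so its signal could not be told from that of the No Probe spots. In units of the No Probe SD, miR-320a stood 11.5 above the No Probe mean on the HuH-7-M array and 7.42 on the HuH-7-P array, and miR-320b 6.28 in HuH-7-M and 4.34 in HuH-7-P (SD over all 85 spots). miR-320c stood 1.60 above it in HuH-7-M and 1.37 in HuH-7-P, and miR-320e 1.23 in HuH-7-M and 1.28 in HuH-7-P, both under 2 SD on each array. miR-320d was at -0.56 in HuH-7-M and -0.35 in HuH-7-P, below the No Probe mean.

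**Figure D1:**
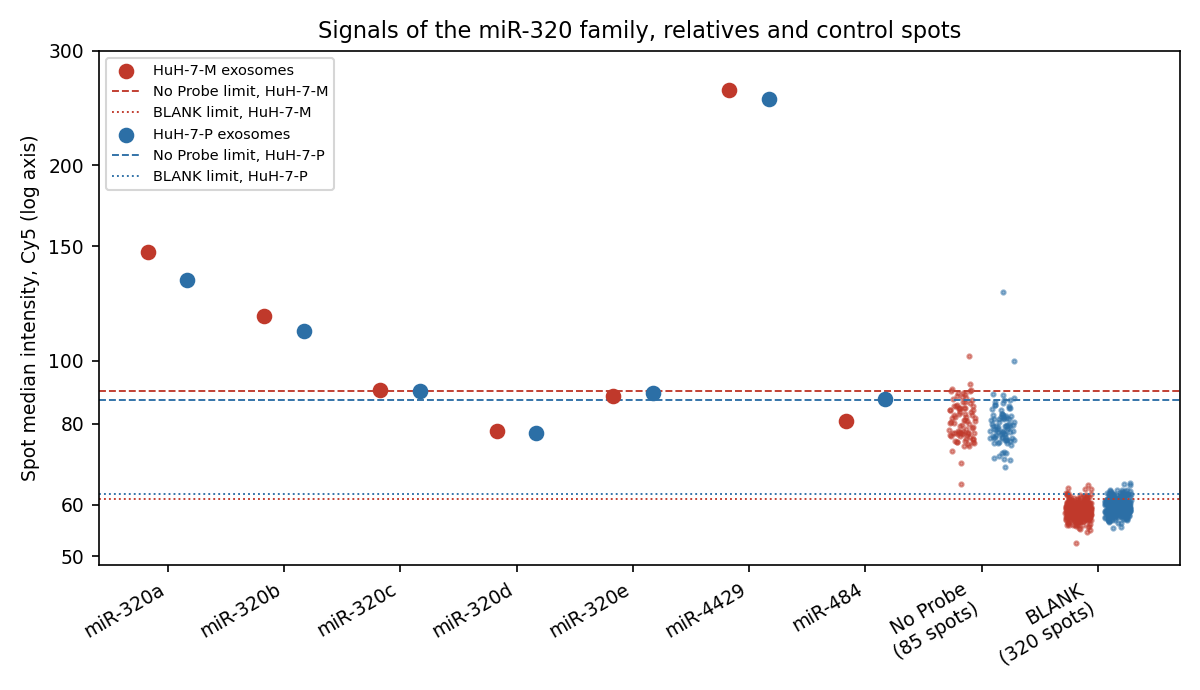
Spot median intensity (log axis) of the 5 miR-320 probes, miR-4429 and miR-484 on the HuH-7-M array (red, left of each pair) and the HuH-7-P array (blue, right), with every No Probe and BLANK spot for comparison; 1 point is 1 spot. Dashed lines are the No Probe limits (89.9 in HuH-7-M and 86.9 in HuH-7-P) and dotted lines the BLANK limits (61.2 in HuH-7-M and 62.3 in HuH-7-P). miR-320a and miR-320b stand above both limits, miR-320c and miR-320e lie at the No Probe limit, and miR-320d lies among the No Probe spots.

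With the mean of the BLANK spots subtracted, which gives the level used for the family, miR-320a had a signal of 88.1 in HuH-7-M exosomes and 73.5 in HuH-7-P exosomes, a ratio of 1.20. The signal of miR-320b was 58.3 in HuH-7-M exosomes and 51.4 in HuH-7-P exosomes, a ratio of 1.13. That of miR-320c was 31.50 in HuH-7-M and 29.97 in HuH-7-P (ratio 1.05), that of miR-320d 19.1 in HuH-7-M and 17.6 in HuH-7-P (1.09) and that of miR-320e 29.4 in HuH-7-M and 29.3 in HuH-7-P. All 5 members were thus level or higher in HuH-7-M exosomes on this scale (other settings turn some or all of them, as given below), with the wider gaps at miR-320a and miR-320b. The gaps were 14.7 signal units for miR-320a, 6.91 for miR-320b, 1.53 for miR-320c, 1.56 for miR-320d and 0.0706 for miR-320e. The spread of a difference between 2 single No Probe spots, 1 per array, was 9.20 signal units (SD), so only the gap of miR-320a was wider than 1 such SD. Part of each gap is the BLANK mean itself, which was lower on HuH-7-M. In spot medians before subtraction the value of HuH-7-M less that of HuH-7-P was -0.92 for miR-320e and 13.7 for miR-320a.

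The comparison asks which vesicle miRNAs differ between the cultures, and none of the 5 members differed by 2-fold. For it the background was corrected by normexp on the BLANK spots with an offset of 50, the arrays were quantile normalized over the miRNA probes, and differences are the log2 value of HuH-7-M less that of HuH-7-P. The difference was 0.18 for miR-320a (1.13-fold), 0.12 for miR-320b (1.08-fold), 0.04 for miR-320c, 0.03 for miR-320d and 0.02 for miR-320e. Before quantile normalization the difference of 2 single No Probe spots had an SD of 0.17. On that scale miR-320a was at 0.162 and every other member was lower, so none reached it. Pooled over 26 control probes, the SD of such a difference was 0.152, which miR-320a slightly exceeded and no other member reached. Of the 5 members 0 passed 2-fold in either direction. Of the 1593 miRNAs above the BLANK limit on both arrays 0.439% were 2-fold or more higher and 1.69% 2-fold or more lower in HuH-7-M exosomes, so a count of 0 among 5 lies near the background. The offset draws dim probes toward 0, so these differences understate ratios for members this near to background.

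The family median was 0.04, beside a median of 0.01 over all 1593 measured miRNAs, whose quartiles were -0.07 and 0.10. All 5 members lay above 0, as did 53.9% of the measured miRNAs, although all 5 lay below 0 when scaled to the Spike Control spots. Other settings turned the dimmer members only: miR-320c (-0.11) and miR-320e (-0.39) with the No Probe mean subtracted, where miR-320d had no value, miR-320e (-0.03) with the mean of its own block of BLANK spots subtracted, and miR-320d (-0.0024) and miR-320e (-0.01) with the scanner's background column. With that column the quartiles of all measured miRNAs were only -0.014 and 0.0092, and both values lay between them, so their sign says little. Over the settings tried, miR-320a and miR-320b lay above 0 in 14 of 15, miR-320c in 13 of 15, miR-320d in 12 of 14 and miR-320e in 11 of 15. All settings rework the same single spot per array, and several differ only by a constant shift of all probes. These counts are therefore not separate support for a direction. miR-320a and miR-320b lay above the upper quartile, with 15.4% and 21.6% of the measured miRNAs at a higher difference. miR-320c, miR-320d and miR-320e lay between the quartiles, with 40.5%, 43.6% and 47.0% of the measured miRNAs higher. Another 576 measured miRNAs had a mean normalized intensity between those of the dimmest and the brightest member, with a median difference of 0.01 and quartiles of -0.06 and 0.09. On the BLANK-subtracted scale without scaling, where 3.33% of measured miRNAs were 2-fold or more higher in HuH-7-M exosomes and 4.46% were 2-fold or more lower, the family median was 0.12 with 0 of 5 members past 2-fold, and the median of the 576 was -0.01 (quartiles -0.20 and 0.19). There miR-320a, at 0.26, lay above that upper quartile, and miR-320b, at 0.18, just below it.

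**Figure D2:**
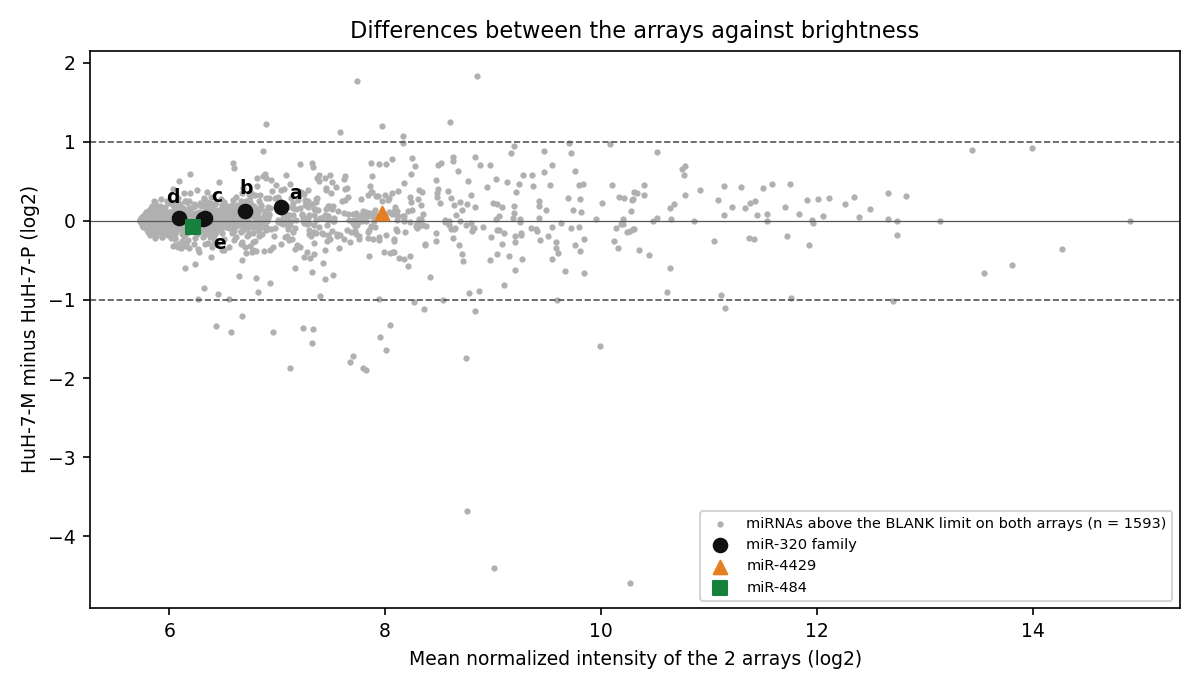
Normalized log2 value of HuH-7-M less that of HuH-7-P, against the mean normalized log2 intensity of both arrays for 1593 miRNAs above the BLANK limit on both (grey), with the miR-320 members (black, lettered a to e), miR-4429 (triangle) and miR-484 (square); dashed lines mark 2-fold. The members sit at the dim end of the intensity axis, in a range that holds 576 other measured miRNAs. Their differences lie between 0.02 and 0.18, far inside the 2-fold lines.

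Direction depended on the scaling. The spots of the 2 probes named Spike Control (8 spots each per array) had higher signals in the HuH-7-M sample by 0.51 and 0.66 (log2 of HuH-7-M over HuH-7-P, BLANK-subtracted). Scaling to them shifted the median over all measured miRNAs to -0.58 and put all 5 members below 0, at -0.42 for miR-320a, -0.49 for miR-320b, -0.55 for miR-320c, -0.55 for miR-320d and -0.58 for miR-320e. Relative to that median, miR-320a stood at 0.16, miR-320b at 0.09, miR-320c and miR-320d at 0.03 and miR-320e at 0.00. Bright probes also favoured HuH-7-M before scaling: 89 measured miRNAs with a mean spot median over 1000 had a median log2 ratio of 0.63 after BLANK subtraction, whereas the 244 between 100 and 150, where miR-320a and miR-320b lie, had 0.00 (quartiles -0.17 and 0.23), and the 316 between 80 and 100 had -0.01.

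In the authors' deposited table, whose values carry no added offset, miR-320a had 74.0 in HuH-7-M exosomes and 60.3 in HuH-7-P exosomes, a log2 difference of 0.30. The deposited values of miR-320b were 49.0 in HuH-7-M and 42.2 in HuH-7-P (0.22), those of miR-320c 26.5 in HuH-7-M and 24.6 in HuH-7-P (0.10), those of miR-320d 16.1 in HuH-7-M and 14.4 in HuH-7-P (0.16) and those of miR-320e 24.7 in HuH-7-M and 24.1 in HuH-7-P (0.04). The identifiers of that table and of the scanner output named the same probe for all 5 members. For miR-4429 they did not, and its values, 170 in HuH-7-M exosomes and 159 in HuH-7-P exosomes (0.10), stood in the authors' deposited table under the identifier of another miRNA.

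The seed relative miR-4429 had a spot median of 261 in HuH-7-M exosomes and 253 in HuH-7-P exosomes, and no No Probe spot on either array was as bright. Its normalized difference was 0.10, between those of miR-320b and miR-320c. Before quantile normalization it was 0.05, below the spread of 0.17 between single No Probe spots. Its BLANK-subtracted signals were 203 in HuH-7-M and 193 in HuH-7-P, a ratio of 1.05.

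miR-484, the other well-studied miRNA with a capped precursor, read 80.8 in HuH-7-M exosomes and 87.2 in HuH-7-P exosomes. It was above the BLANK limit on both arrays and above the No Probe limit on HuH-7-P only, by 0.335 (on neither array with all No Probe spots kept), and 41 in HuH-7-M and 5 in HuH-7-P of the 85 No Probe spots were brighter. Its normalized difference was -0.08, opposite in sign to the 5 members (though not on the Spike Control scale, where it was -0.69). Before quantile normalization it was -0.10, smaller in size than the spread of 0.17 between single No Probe spots. Its BLANK-subtracted ratio was 0.802 (log2 -0.32). Whether it differs from the family was not tested, with 1 array per culture.

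Among 20 probes listed as mirtrons (miR-877, miR-1224 to miR-1229 and miR-1236 to miR-1238, both arms), all 20 were above the BLANK limit on both arrays. Of them 18 passed the No Probe limit as well. Whether each of them is released by splicing was not tested. Their median difference was -0.03, with 9 of 20 above 0 and 0 past 2-fold either way. The highest was miR-1225-3p, at 212 in HuH-7-M exosomes and 134 in HuH-7-P exosomes (0.72), and the lowest miR-1236-5p, at 94.3 in HuH-7-M and 132 in HuH-7-P (-0.50). On the BLANK-subtracted scale without scaling these ends passed 2-fold, at 1.04 and -1.02, which no member did. These ends were picked as the extremes of 20 probes. Of all measured miRNAs, 3.33% were 2-fold or more higher and 4.46% 2-fold or more lower in HuH-7-M exosomes on that scale. miR-451a, which Drosha cuts but Dicer does not, read 69.9 in HuH-7-M exosomes and 71.8 in HuH-7-P exosomes (-0.01), and 83 in HuH-7-M and 80 in HuH-7-P of the 85 No Probe spots were brighter.

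The probes with the values most like the median of the family were miR-3158-3p, at 89.8 in HuH-7-M exosomes and 89.9 in HuH-7-P exosomes, miR-6783-3p, at 90.3 in HuH-7-M and 90.3 in HuH-7-P, and miR-149-5p, at 89.6 in HuH-7-M and 90.4 in HuH-7-P. Likeness was the distance in normalized log2 values over the 2 arrays, 0.01 for the first and 0.02 for the third. In all 86 measured miRNAs outside the family lay within a distance of 0.1 of that median. The median equals the normalized log2 values of miR-320c (6.35 in HuH-7-M and 6.31 in HuH-7-P), which lay at the No Probe limit. The brighter miR-320a (7.12 in HuH-7-M and 6.95 in HuH-7-P) and miR-320b (6.76 in HuH-7-M and 6.65 in HuH-7-P) lay farther from it than 0.1. So did the dimmer miR-320d (6.11 in HuH-7-M and 6.08 in HuH-7-P).

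**Figure D3:**
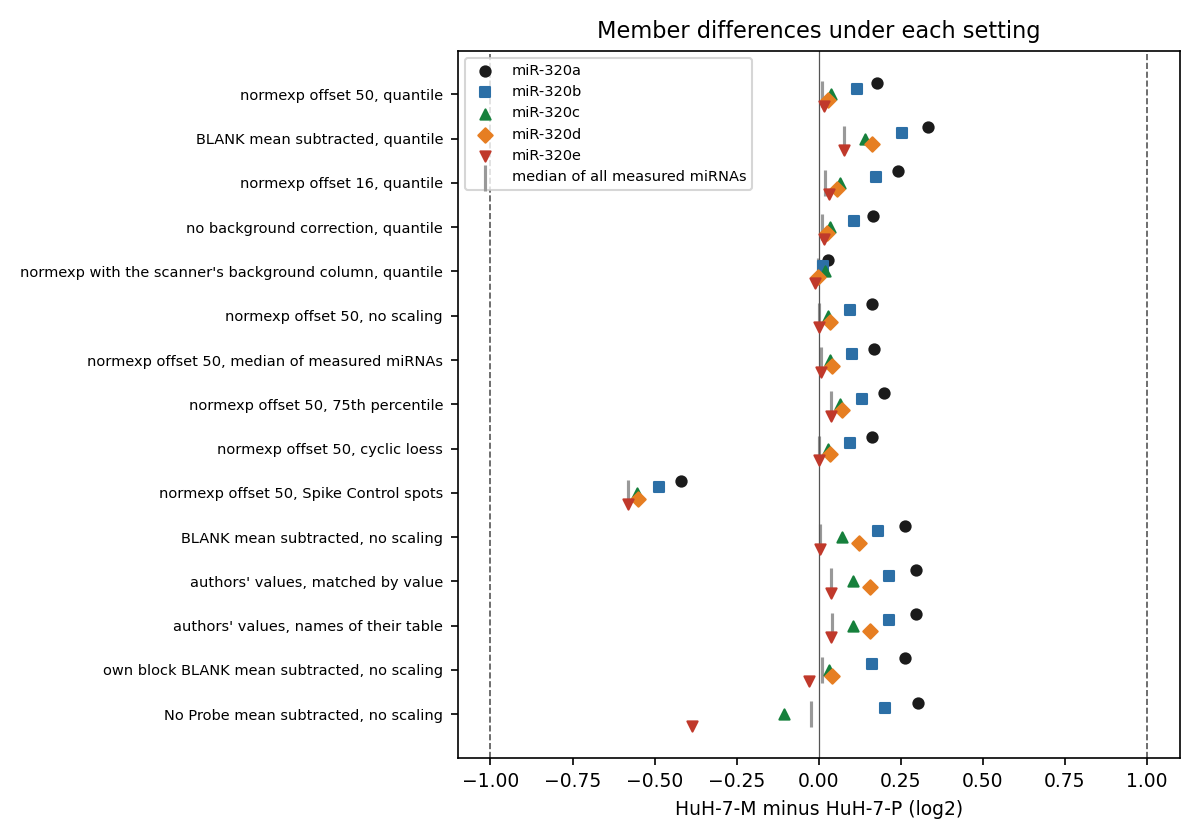
Log2 difference (HuH-7-M less HuH-7-P) of each miR-320 member (symbols) under each of 15 ways of correcting background and scaling, with the median of all measured miRNAs (grey bar) for each; dashed lines mark 2-fold. No member reached 2-fold under any of them, miR-320a and miR-320b lay above 0 under all but the Spike Control scaling, and miR-320d has no value where the No Probe mean was subtracted.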

How the data were processed

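The authors deposited, per the file headers, scanner output with a spot median intensity at 635 nm for 3200 spots of each of 2 arrays, without background subtraction, and a table of processed intensity values with no stated software. Samples were grouped by title (HuH-7-M, HuH-7-P; n = 1 each). The members and gene lists were chosen with earlier results of these data known.

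Spot medians were corrected with normexp on the BLANK spots (nec, limma 3.58.1, R 4.3.3, offset 50), log2-transformed and quantile normalized over 2565 miRNA probes. Limits were the mean plus 2 SD of control spots after leaving out the top and bottom 5%. Some of the settings were tested on simulated data, with changes of more than 2-fold placed on probes of higher BLANK-subtracted signal than any member. Changes at probes as dim as the members, or as small as their differences, were not covered. The scanner's second column, named as background median, followed the spot median (r = 0.992 on each array) and was used in an alternative only. Values of the authors' table were assigned to probes by rebuilding them from the scanner output (tolerance 1e-06). Named miRNAs were the 5 members, miR-484, array miRNAs with a member's seed, miR-451a, the extremes of the mirtron list and the 3 nearest probes. No test was run, since 1 array per group gives no spread between cultures, and the number of arrays limits the precision.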

Additional observations from a re-analysis of the deposited data

How the results depend on the processing

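The family median was 0.04 (log2) and lay between 0.01 and 0.16 under every alternative of background, scaling, filter and naming except the Spike Control scaling, where it was -0.55 (0.03 relative to the median of all measured miRNAs there). No member was 2-fold apart under any of the 14 alternatives of background, scaling and naming. Under the No Probe limit 3 of 5 members were above background on both arrays, against 5 under the BLANK limit, the BLANK limit with 3 SD and the highest BLANK spot. With no control spots left out, 2 of 5 members passed the No Probe limit and 5 the BLANK limit. This choice, and subtracting the mean of the member's own block of BLANK spots, or that of the No Probe spots, were chosen after seeing the data. With the No Probe mean subtracted, miR-320c and miR-320e were -0.11 and -0.39, miR-320a and miR-320b were 0.30 and 0.20, and miR-320d had no value. With the own-block BLANK mean, miR-320e was -0.03, and with the scanner's background column it was -0.01 and miR-320d was -0.0024. miR-484 stayed below 0 under all its 14 settings, at -0.32 with the BLANK mean subtracted, but these settings rework the same spots and are not separate support. No paired analysis was possible because each group has 1 sample. For the same reason no replicate could be left out. Signal over background limits miR-320c, miR-320d and miR-320e.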

Other observations

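The scanner's second intensity column gave the opposite order of the arrays for some members. In that column miR-320a read 129 in HuH-7-M exosomes and 136 in HuH-7-P exosomes, miR-320b 103 in HuH-7-M and 108 in HuH-7-P, miR-320c 73.5 in HuH-7-M and 88.8 in HuH-7-P, and the seed relative miR-4429 196 in HuH-7-M and 242 in HuH-7-P, all lower on HuH-7-M, whereas their spot medians were higher there. miR-320d read 74.8 in HuH-7-M and 74.3 in HuH-7-P and miR-320e 82.3 in HuH-7-M and 79.4 in HuH-7-P in it. Over all miRNA probes this column exceeded the spot median at 16.3% of spots on the HuH-7-M array and 21.8% on the HuH-7-P array.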
